A study of Rattus norvegicus with 6 samples.

Results

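The 9 genes described here carry non-haem iron through the absorptive cell of the small intestine, store it and regulate its handling: Slc11a2, Cybrd1, Slc40a1, Heph, Tfrc, Fth1, Ftl1, Ireb2 and Aco1. They were taken as a list of genes of duodenal and jejunal iron uptake, export and storage, and every array probe whose RefSeq transcript belongs to 1 of them was kept, which gave 16 probes of 41012 on the array and 9 genes of 13900 with a symbol. Of the 9 genes, 5 have a single probe and 4 have several. RNA came from the jejunum of male Sprague-Dawley rats aged 6 weeks, of 200 ± 20 g body weight, all housed at 25°C and 60% humidity before the groups were formed. Rats of the S3d group were then stressed on 3 days for 2 h per day at 35°C with shaking at 0.1 g, and the control group was not. There were 3 arrays in each group, each hybridised with RNA that the labels describe as pooled from 3 rats, out of 10 rats per group. The study's methods give a smaller number of rats per group, with which the pools of a group would have to share animals, so the pools may not be independent. The tissue was a minced section of washed jejunum, so every cell layer of the wall contributed, and fewer cells of a type cannot be told apart from less RNA per cell.

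In the absorptive cell, dietary ferric iron is reduced at the brush border and enters as ferrous iron through a proton-coupled transporter. It is then either stored inside the shell of ferritin or leaves at the basolateral side through ferroportin, where a copper-containing oxidase converts it back to the ferric form that plasma transferrin carries. Inside the cell, the iron regulatory proteins bind iron-responsive elements in mRNAs when iron is scarce, which protects transferrin receptor mRNA from decay and blocks the translation of ferritin, so ferritin is known to be set largely at the level of protein. The hypoxia-inducible factor encoded by Epas1 is known to raise transcription of several of the transport genes in the intestine.

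Values are the log2 background-corrected signal of a probe minus the log2 75th percentile of its own array, so 0 is the 75th percentile, and differences are given as the mean of the arrays labelled S3d minus the mean of the arrays labelled control. These are the labels of the scanner files, and the direction opposes that of the study: each column of the deposited normalized table matched a scanner file that carries the same replicate number but the opposite group label (rank correlation 1.00 across probes, against 0.94 to 0.95 for the scanner file of its own label). No sample was reassigned, every direction below is that of the scanner labels alone, and values of the deposited table, read by its own labels, are given with the 9 genes. The 75th percentile of the signal was 415 to 430 on the arrays labelled control and 1458 to 1558 on those labelled S3d, and 68.4% to 73.1% and 76.9% to 80.7% of probes were well above background. The arrays of a group shared a slide, and the slides differ in the day of scanning, so slide and group cannot be told apart. All 16 iron gene probes were well above background on all 6 arrays, and none was saturated. Probes differ in how strongly they hybridise, so their levels were not ranked, and ratios between probes are read only for their shift between the groups.

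By limma with Benjamini-Hochberg adjustment over all 31367 tested probes, 8 of the 16 iron gene probes differed between the groups at an adjusted p under 0.05 (called here), with 3 of them higher and 5 lower in S3d by these labels. That is a share of 50%, where 74% of all tested probes were called, 39.5% higher and 34.5% lower. With a fold change of at least 1.5 as well, 7 iron gene probes passed, beside 52.5% of all tested probes. The groups did not overlap for 10 of the 16 probes (62.5%), against 78.9% of all tested probes. The median log2 fold change was -0.08 over the iron gene probes and 0.08 over all tested probes. The split by direction depended on the scaling. Under quantile normalization 8 iron gene probes were higher and 2 lower, where 70.6% of all tested probes were called. Median centring gave 2 higher and 8 lower, where 23179 of the 31367 tested probes were called. Normexp background correction gave 1 higher and 0 lower. Far fewer probes of the array were then called (1752, all with a fold change of at least 1.5), and the median over every tested probe was -0.69. In the deposited table by its own labels, 2 iron gene probes were called higher and 8 lower, beside 21975 probes called over the whole array. Among all called probes 53.4% were higher, with 50.4% in the deposited table, 31.0% under normexp and 98.1% without any scaling. Without scaling, the median of all tested probes shifted by 1.93, 30121 of them were called, and all 16 iron gene probes were called higher. Relative to that shift, the iron gene probes lay between -1.16 and 2.44.

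Iron entry at the brush border differed in 1 of its 2 genes. Cybrd1, the duodenal cytochrome b that reduces ferric iron at the cell surface, was higher on the arrays labelled S3d, and the difference for Slc11a2, the divalent metal transporter that takes up the reduced iron, did not pass the test. The Cybrd1 probe (A_43_P14622, transcript NM_001011954) was at 2.28, 2.05 and 2.21 on the arrays labelled control (replicates 1, 2 and 3, in this order throughout) and at 3.01, 2.69 and 2.67 on those labelled S3d. All 3 arrays labelled S3d lay above all 3 labelled control, with S3d 1 the highest. Its log2 fold change was 0.61 (SE of 0.12, with SE the standard error, and adjusted p = 0.0041, limma), which is 1.53-fold. It was 0.80 under quantile normalization, 0.44 with median centring and 0.95 with normexp (adjusted p = 0.11, limma), and -0.80 in the deposited table by its own labels.

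The single Slc11a2 probe (A_44_P294711, NM_013173) was at 2.91, 2.56 and 2.98 on the arrays labelled control and at 2.57, 3.12 and 3.34 on those labelled S3d. The groups overlapped, because S3d 1 lay with the lowest control array while the other S3d arrays lay above every control array. The SD was 0.22 in the control group and 0.40 in the S3d group (n = 3 each), the latter being the largest SD of any iron gene probe in either group. The log2 fold change was 0.19, with a 95% confidence interval from -0.35 to 0.74 (adjusted p = 0.46, limma), so a change of the size seen for Cybrd1 lies within the interval. Left out in turn, single arrays moved it between 0.02 and 0.41 without a call, and the deposited table gave -0.43.

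Iron exit at the basolateral side showed changes of opposite sign in its 2 genes. Slc40a1, which encodes ferroportin, the only known exporter of cellular iron in mammals, was higher on the arrays labelled S3d, and Heph, the membrane-bound oxidase hephaestin that works beside it, was lower. The brighter Slc40a1 probe (A_44_P819401, NM_133315) was at 3.07, 2.81 and 3.03 on the arrays labelled control and at 3.36, 3.30 and 3.34 on those labelled S3d. The 3 arrays labelled S3d lay close together and above every control array. The log2 fold change was 0.36 (SE 0.09, adjusted p = 0.0099, limma), a 1.28-fold difference, and -0.62 in the deposited table. The call was lost with median centring (0.18, adjusted p = 0.12, limma).

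The second Slc40a1 probe (A_43_P13162) was at 0.88, 0.51 and 0.79 on the arrays labelled control and at 0.94, 0.97 and 1.07 on those labelled S3d. The groups again did not overlap, but control 1 lay just below the lowest S3d array. Its log2 fold change of 0.27 (adjusted p = 0.07, limma) was not called, and became a call without control replicate 1 (0.34), with an intensity trend and with array weights. The 2 probes moved by amounts that differed by 0.09 within arrays, with overlapping groups, and the deposited table gave -0.29 for the second.

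The Heph probe (A_44_P1051724, NM_133304) was at 5.38, 5.46 and 5.32 on the arrays labelled control and at 4.63, 4.65 and 4.74 on those labelled S3d. No array of either group lay near the other group. The log2 fold change was -0.71 (SE 0.07, adjusted p = 0.00022, limma), 1.64-fold lower. It was -0.24 under quantile normalization (adjusted p = 0.025, limma), -0.23 with normexp, where it was not called, and 0.24 in the deposited table. The Heph probe was among the brightest 5% of the tested probes, whose median log2 fold change under this scaling was -0.64.

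Because dividing by the 75th percentile or the median of an array cancels in a ratio of 2 probes of that array, the transporters were also set against Heph within arrays, a comparison chosen after the values were seen. The log2 ratio of Cybrd1 to Heph shifted by 1.32 on the arrays labelled S3d, and by 1.04 under quantile normalization. The ratio of Slc40a1 to Heph shifted by 1.07 and that of Slc11a2 to Heph by 0.90. In none of these ratios did the groups overlap, and 0.1 is the smallest two-sided p that an exact permutation test can give with 3 arrays against 3. The ratios set the reductase, the importer and the exporter each against the oxidase, and show neither which of them stayed constant nor that the 3 differed from each other, and Heph was taken as the reference with its fall already known.

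**Figure D1:**
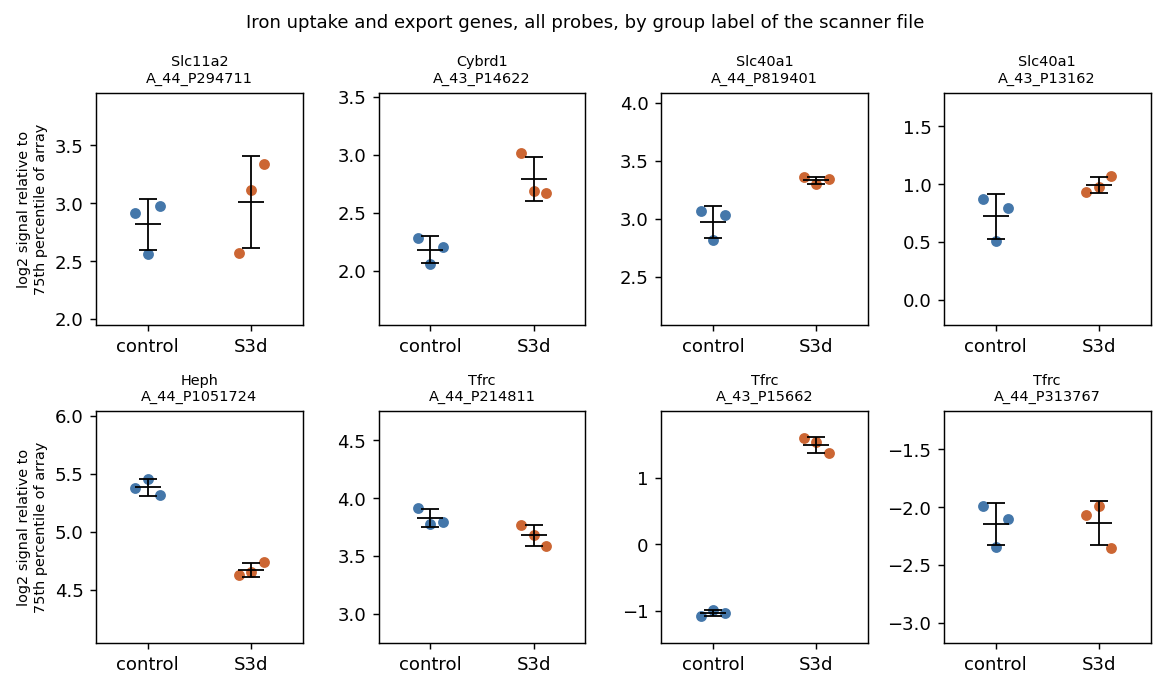
Log2 signal relative to the 75th percentile of the array (y axis) for each probe of Slc11a2, Cybrd1, Slc40a1, Heph and Tfrc, by group label of the scanner file (x axis), with 1 point per array, a bar at the mean and whiskers of 1 SD (n = 3); the y axes differ in position. The arrays labelled S3d lie above the others for Cybrd1, both Slc40a1 probes and Tfrc probe A_43_P15662, and below them for Heph. For Slc11a2 the groups overlap, with only S3d 1 within the range of the control arrays.

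Tfrc, the transferrin receptor gene, held the probe with the largest change among the iron gene probes, and also the largest disagreement between probes of 1 gene. Tfrc encodes the receptor that brings transferrin-bound iron into cells from the plasma, in the intestine mainly at the basolateral side and in dividing crypt cells. Its probe A_43_P15662 (NM_022712), printed at 10 spots of the array, was at -1.08, -0.99 and -1.03 on the arrays labelled control and at 1.60, 1.53 and 1.36 on those labelled S3d. The groups were far apart, and the 10 spots of an array agreed closely, with an SD between 0.07 and 0.12 on the log2 scale. In the background-corrected signal before scaling, the 10 spots ranged from 174 to 241 over the arrays labelled control and from 3693 to 4909 over those labelled S3d. The log2 fold change was 2.53 (SE 0.08, adjusted p = 1.1e-05, limma), 5.76-fold, and 4.27% of all tested probes changed by more. It was the only iron gene probe still called with normexp (2.06, adjusted p = 0.021, limma), and the deposited table gave -2.55.

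The other Tfrc probes did not show it. Probe A_44_P214811 was at 3.91, 3.78 and 3.79 on the arrays labelled control and at 3.77, 3.68 and 3.59 on those labelled S3d. The groups did not overlap but almost touched, and the log2 fold change of -0.15 (adjusted p = 0.13, limma) was not called, with 0.21 under quantile normalization (adjusted p = 0.04, limma), -0.33 with median centring (adjusted p = 0.011, limma) and -0.20 in the deposited table. Probe A_44_P313767 was at -1.99, -2.34 and -2.10 on the arrays labelled control and at -2.07, -1.99 and -2.35 on those labelled S3d. The groups overlapped fully, with a log2 fold change of 0.01 (95% confidence interval -0.33 to 0.34) and 0.13 in the deposited table. Within arrays, the log2 ratio of A_43_P15662 to A_44_P313767 shifted by 2.52 and that of A_44_P214811 to A_43_P15662 by -2.68, in both cases without overlap between the groups (exact permutation p = 0.1, the smallest possible here). All 3 probes carry the same transcript accession, and which part of the transcript each of them matches was not analysed here, so a single direction for Tfrc is not given.

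Ferritin, the storage protein, is built from heavy chains, which oxidise the iron, and light chains, which help to lay it down as a mineral core. Of the 6 probes for the 2 ferritin genes, 4 were lower on the arrays labelled S3d by about 1 on the log2 scale, and 2 did not pass the test. Fth1, the heavy chain, was at 8.23, 8.25 and 8.29 on the arrays labelled control and at 7.37, 7.18 and 7.07 on those labelled S3d with probe A_44_P292634 (NM_012848). The control arrays were nearly equal and all lay above the S3d arrays. The log2 fold change was -1.05 (SE 0.09, adjusted p = 0.00014, limma), or 2.07-fold lower. The second Fth1 probe (A_44_P351546) was at 6.59, 6.52 and 6.42 on the arrays labelled control and at 6.45, 6.46 and 6.35 on those labelled S3d. Here the groups overlapped, the log2 fold change of -0.09 was not called (adjusted p = 0.29, limma), and the ratio of the 2 Fth1 probes within arrays shifted by -0.96 without overlap.

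The light chain gene Ftl1 (NM_022500) showed the same division. Its probe A_44_P149188 was at 8.93, 9.06 and 9.07 on the arrays labelled control and at 8.06, 7.95 and 7.91 on those labelled S3d. Its probe A_42_P541034 was at 8.31, 8.40 and 8.47 on the arrays labelled control and at 7.48, 7.23 and 7.23 on those labelled S3d. Its probe A_44_P114869 was at 6.79, 6.77 and 6.94 on the arrays labelled control and at 5.96, 5.83 and 5.82 on those labelled S3d. For each of these 3 probes every control array lay above every S3d array, with log2 fold changes of -1.05, -1.08 and -0.96 (adjusted p = 6.9e-05, 0.00015 and 0.00011, limma). The fourth probe, A_42_P541032, was at 6.80, 6.76 and 6.93 on the arrays labelled control and at 6.80, 6.61 and 6.59 on those labelled S3d. S3d 1 lay among the control arrays, and the log2 fold change was -0.16 (adjusted p = 0.14, limma).

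The ferritin differences depended on how the arrays were brought to a common scale. All 6 ferritin probes were among the brightest 5% of the tested probes, and the 1569 probes of that class had a median log2 fold change of -0.64 under scaling by the 75th percentile and of -0.01 under quantile normalization, beside 0.08 and 0.02 over all tested probes. Under quantile normalization the 4 probes that had been lower were at 0.06 for Fth1 (A_44_P292634) and at 0.28, 0.08 and -0.23 for Ftl1 (A_44_P149188, A_42_P541034 and A_44_P114869). The other 2 probes, 1 of each gene, were then called higher, at 0.63 each (adjusted p = 0.00038 for Fth1 and 0.0007 for Ftl1, limma). With normexp the 6 probes lay between -0.51 and 0.61 and none was called, and in the deposited table by its own labels between -0.66 and 0.21. No direction for ferritin mRNA is therefore given. Scaled by the 75th percentile, by quantiles and with normexp, the called Fth1 probe moved lower than the other Fth1 probe, by -0.96, -0.57 and -0.99 in turn, and each of the 3 called Ftl1 probes moved lower than A_42_P541032.

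**Figure D2:**
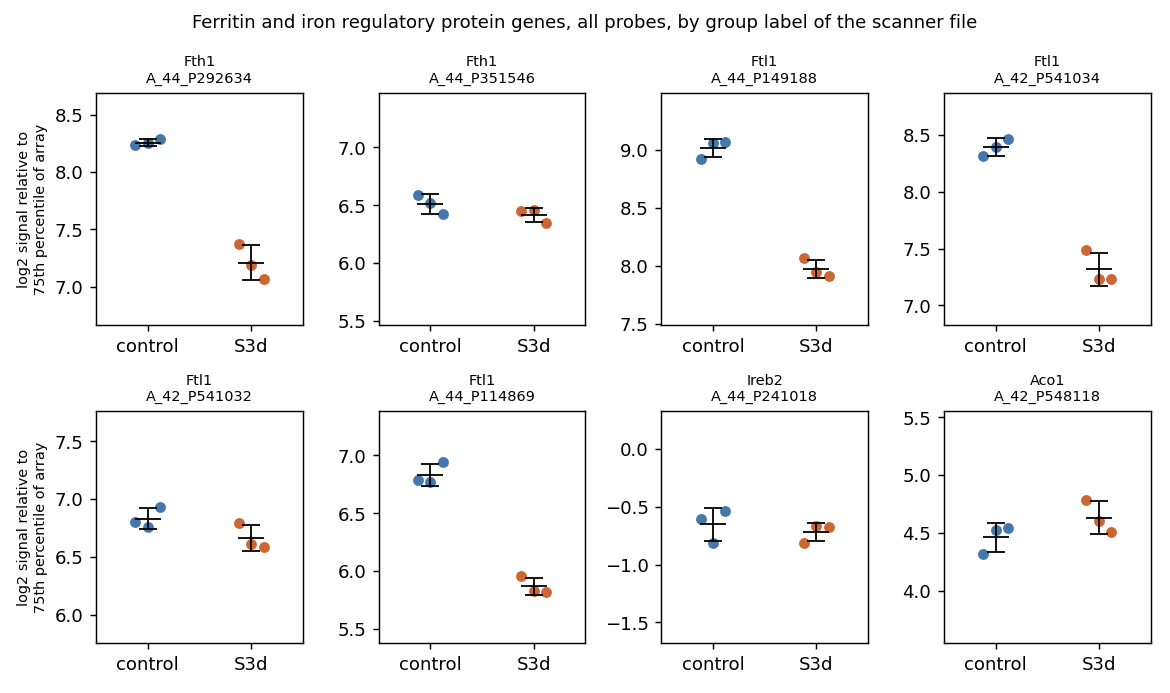
Log2 signal relative to the 75th percentile of the array (y axis) for each probe of Fth1, Ftl1, Ireb2 and Aco1, by group label of the scanner file (x axis), with 1 point per array, a bar at the mean and whiskers of 1 SD (n = 3); the y axes differ in position. Probes A_44_P292634, A_44_P149188, A_42_P541034 and A_44_P114869 are lower on the arrays labelled S3d by 0.96 to 1.08 without overlap, and the other 4 probes overlap between the groups.

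For the genes of the iron regulatory proteins, the RNA-binding sensors of the iron supply, no difference passed the test. Ireb2, which encodes the regulatory protein that is degraded when iron is plentiful, was at -0.61, -0.81 and -0.54 on the arrays labelled control and at -0.81, -0.67 and -0.68 on those labelled S3d (A_44_P241018, NM_022863). The groups overlapped, and the log2 fold change was -0.07 (95% confidence interval -0.30 to 0.16, adjusted p = 0.55, limma). Aco1, whose product is an aconitase when it holds an iron-sulphur cluster and binds RNA when it does not, was at 4.32, 4.53 and 4.54 on the arrays labelled control and at 4.78, 4.60 and 4.51 on those labelled S3d (A_42_P548118, NM_017321). S3d 3 lay among the control arrays, and the log2 fold change was 0.17 (95% confidence interval -0.09 to 0.42, adjusted p = 0.19, limma). Under quantile normalization Aco1 was called at 0.61 (adjusted p = 0.0024, limma), while Ireb2 stayed at -0.06. The deposited table gave 0.07 for Ireb2 and -0.59 for Aco1.

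**Figure D3:**
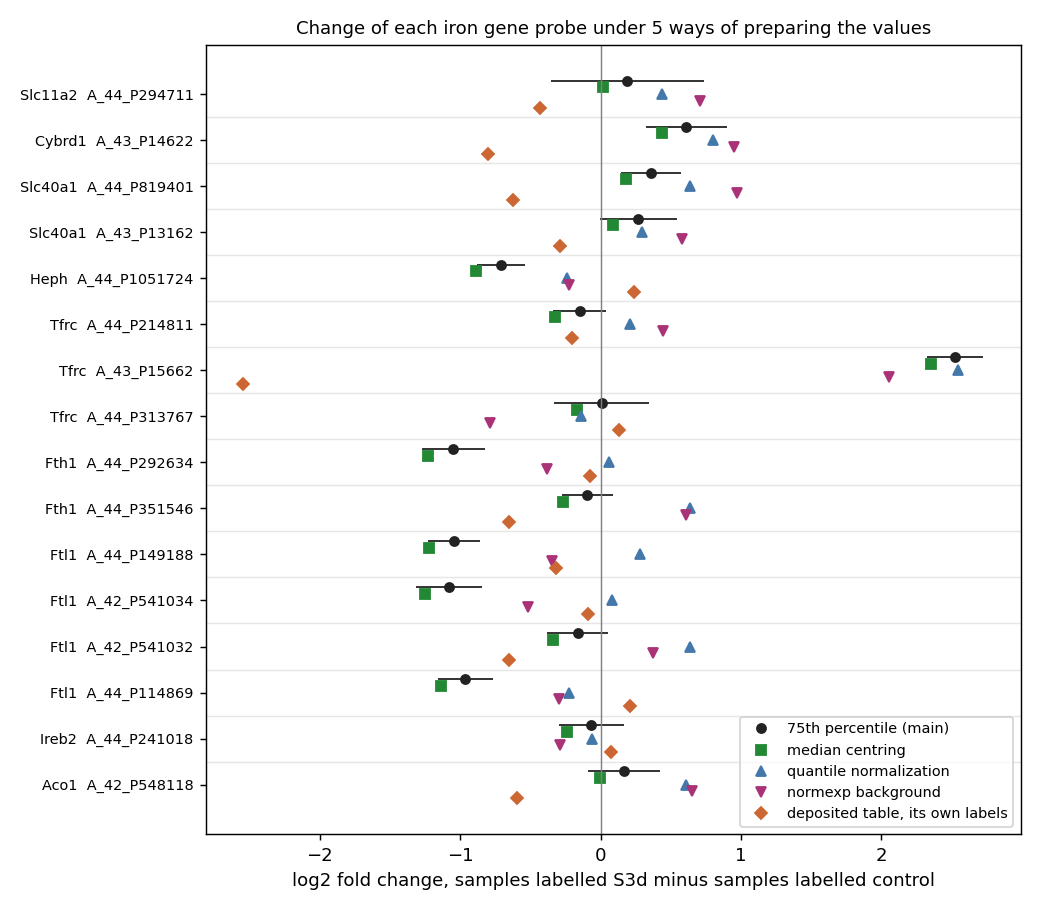
Log2 fold change (x axis, samples labelled S3d minus samples labelled control) of each of the 16 iron gene probes (y axis) under 5 ways of preparing the values, with the 95% confidence interval of the main value as a line. Slc11a2, Cybrd1, both Slc40a1 probes and Tfrc probe A_43_P15662 (2.06 to 2.54) stay above 0 under all 4 preparations of the scanner files. Heph, Ireb2 and Ftl1 probe A_44_P114869 stay below 0 under all 4. Fth1 and Ftl1 move across 0 or toward it under quantile normalization. The deposited table by its own labels lies near the mirror image of quantile normalization.

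The stretch of 250 bases before the annotated start of 4 genes with a called probe is shown because hypoxia-inducible factors and the metal-sensing factor MTF1 are known regulators of iron genes. RefSeq windows of the rat assembly GRCr8 matched 7 of the 9 genes, with 2 windows for Slc11a2. The windows lie at chr11:81690319-81690568 (minus strand) for Tfrc, chr3:76342343-76342592 (plus) for Cybrd1, chr9:55543461-55543710 (minus) for Slc40a1 and chrX:65308806-65309055 (plus) for Heph. They are printed 5′ to 3′ on the strand of the gene, with capitals for any match, on either strand, to the cores of the hypoxia response element (ACGTG or GCGTG), of the metal response element (TGCACNC or TGCGCNC) and of the antioxidant response element (TGACNNNGC).
Tfrc: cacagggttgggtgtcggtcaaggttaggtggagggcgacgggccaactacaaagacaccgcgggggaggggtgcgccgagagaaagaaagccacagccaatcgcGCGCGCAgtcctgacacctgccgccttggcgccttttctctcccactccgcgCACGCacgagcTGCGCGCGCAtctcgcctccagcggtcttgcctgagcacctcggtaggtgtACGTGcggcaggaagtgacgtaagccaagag
Cybrd1: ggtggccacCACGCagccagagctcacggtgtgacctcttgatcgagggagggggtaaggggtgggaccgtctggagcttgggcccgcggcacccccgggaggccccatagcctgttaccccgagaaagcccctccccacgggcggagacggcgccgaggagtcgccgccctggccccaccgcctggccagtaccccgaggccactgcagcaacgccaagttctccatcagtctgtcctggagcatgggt
Slc40a1: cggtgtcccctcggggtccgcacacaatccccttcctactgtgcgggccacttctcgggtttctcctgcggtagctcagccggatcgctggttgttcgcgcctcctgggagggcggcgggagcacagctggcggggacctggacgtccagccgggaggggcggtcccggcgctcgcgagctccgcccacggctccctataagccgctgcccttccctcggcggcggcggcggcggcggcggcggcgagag
Heph: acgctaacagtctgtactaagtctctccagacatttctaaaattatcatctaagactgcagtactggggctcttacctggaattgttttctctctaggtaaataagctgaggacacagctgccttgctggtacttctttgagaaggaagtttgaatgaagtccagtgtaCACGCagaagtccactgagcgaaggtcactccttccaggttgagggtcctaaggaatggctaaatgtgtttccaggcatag
The Tfrc window held 2 hypoxia cores and 3 metal response cores, of which a pair on opposite strands overlap. The windows of Cybrd1 and Heph each held 1 hypoxia core, as did those of Aco1 and 1 of the 2 windows of Slc11a2, and the windows of Slc40a1, Ireb2 and the other window of Slc11a2 held none. No window held the antioxidant core. Of all 33469 windows of the same length, 36.7% held a hypoxia core, 20.6% a metal response core and 10.1% an antioxidant core. The cores thus occurred in windows of a gene that was higher (Cybrd1), of one that was lower (Heph) and of one that was not called (Aco1), and a match is a description of these letters and not of a bound site.

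Beyond the 9 genes, 83 further genes of iron handling were listed in 8 functional groups, of which 70 had a probe and 68 were tested, each on its probe with the highest signal. Of these, 52 were called (76.5%, beside 73.5% of all 11542 genes tested in this way), 21 of them higher (background 36.1%) and 31 lower (background 37.4%) in S3d by these labels. The median log2 fold change was -0.14, beside 0.00 over all genes. The split was 26 higher and 24 lower under quantile normalization, and 24 higher and 26 lower in the deposited table. A share so close to that of all genes is no result about iron genes, and the groups below are described gene by gene. In the deposited table by its own labels, every further gene named here had the opposite sign on its highest-signal probe.

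Among the 8 genes of non-haem iron entry, 2 were higher and 3 lower. Slc39a8, a zinc and iron importer of the ZIP family, rose by 0.99 (adjusted p = 0.0036, limma), with its other probes at 1.85 and -0.32. Steap3, the ferrireductase of endosomes that carry the transferrin receptor, rose by 0.63 (adjusted p = 0.0052, limma) and lay at -0.33 with normexp. Slc39a14, the related importer, fell by 0.51 (adjusted p = 0.048, limma), with its 3 other probes at -0.17, -0.30 and -0.38. That call was lost under quantile normalization, in the one-way analysis of variance, and without control replicate 1 (-0.58), 2 (-0.41) or 3 (-0.53) or S3d replicate 1 (-0.33) or 2 (-0.52). Steap1 fell by 2.40 and was well above background on only 2 of the 3 arrays labelled S3d, so it was tested through the control arrays alone.

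Of 13 haem iron genes tested, 3 were higher and 5 lower. Hmox1, the inducible haem oxygenase that releases iron from haem, was at 3.56, 3.29 and 3.13 on the arrays labelled control and at 0.39, 0.60 and 1.12 on those labelled S3d. Every control array lay well above every S3d array, and the log2 fold change was -2.63 (SE 0.21, adjusted p = 0.0001, limma), with 2.47 in the deposited table. Blvra, the biliverdin reductase of the next step, rose by 1.49 (adjusted p = 2.5e-05, limma). Slc46a1, a transporter of folate and haem at the brush border, fell by 0.73 on its brighter probe (adjusted p = 0.0022, limma) and was at 0.01 on the other. Hp, haptoglobin, which binds free haemoglobin, rose by 1.57 (adjusted p = 0.00029, limma) and lay at -0.16 with normexp.

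The plasma iron and hepcidin genes had 7 called higher and 4 lower among 12 tested. The higher calls include genes, among them Tfr2 and Hjv, whose probes passed the background filter only through the arrays labelled S3d, where they are high. Over the whole array, 3576 probes were tested through S3d alone and 739 through control alone, so no p-value is given for Tfr2 and Hjv. Hamp, the hormone hepcidin that removes ferroportin from the cell surface, was at -1.50, -1.50 and -2.11 on the arrays labelled control and at -2.20, -3.26 and -2.86 on those labelled S3d. The groups did not overlap, and Hamp fell by 1.07 on the log2 scale (adjusted p = 0.02, limma), beside 1.22 in the deposited table. Its call was lost in the one-way analysis of variance and without control replicate 1 (-0.97) or 2 (-0.96) or S3d replicate 2 (-0.82) or 3 (-1.03). Acvr1, a receptor of bone morphogenetic proteins, fell by 2.60 (adjusted p = 1e-05, limma). Tfr2, the second transferrin receptor, was not well above background on any array labelled control and was at least 1.86-fold higher on those labelled S3d. Here the lower bound sets the mean of the S3d arrays against, on each control array, the higher of the probe's own value and the lowest value among probes well above background. Hjv, a co-receptor of the same pathway, was at -4.42, -5.72 and -7.32 on the arrays labelled control. It was well above background on only 1 of these arrays, so its difference of 2.98 has no firm size. Both Tfr2 and Hjv had negative values with normexp (-1.90 for Tfr2 and -0.65 for Hjv).

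The copper link of iron transport had 2 of 3 tested genes higher. Slc31a1, the copper importer, was at -2.79, -2.69 and -2.89 on the arrays labelled control and at 1.41, 1.79 and 1.68 on those labelled S3d, which is a rise of 4.42 on the log2 scale (SE 0.12, adjusted p = 9.5e-06, limma). Atp7a, the copper pump that loads hephaestin and other copper enzymes, was at -2.02, -2.68 and -2.20 on the arrays labelled control and at -0.29, 0.04 and 0.26 on those labelled S3d, a rise of 2.30 on that scale (adjusted p = 0.00018, limma). The groups did not overlap for either gene, as for 78.9% of all tested probes, and a link of these genes to Heph was not tested. Cp, the plasma ferroxidase ceruloplasmin, was at 0.21 on its brightest probe (adjusted p = 0.14, limma). Its other probes were at 1.76 (adjusted p = 4.8e-05, limma) and 3.63, so its probes disagree. The probe at 3.63 was well above background on only 2 arrays labelled control. Without S3d replicate 1 the brightest probe was called as well (0.32).

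All 4 tested genes of iron chaperones and ferritin turnover were called, 1 higher and 3 lower. Pcbp2, an RNA-binding protein that also hands iron to ferritin, fell by 0.89 (adjusted p = 5.2e-05, limma). Ncoa4, the receptor that delivers ferritin to the lysosome, was at 2.03, 1.93 and 2.13 on the arrays labelled control and at 1.74, 1.23 and 1.27 on those labelled S3d, and fell by 0.61 (adjusted p = 0.011, limma). Herc2, a ubiquitin ligase that acts on Ncoa4 protein, rose by 0.50 (adjusted p = 0.0059, limma).

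Of the 9 iron and oxygen sensing genes tested, 6 were lower and 1 higher. Epas1 was at 1.07, 0.89 and 1.04 on the arrays labelled control and at -0.85, -1.15 and -1.01 on those labelled S3d, without overlap. It was 4.01-fold lower (adjusted p = 2.3e-05, limma), with a log2 fold change of 2.01 in the deposited table. Egln3, an oxygen-sensing prolyl hydroxylase, fell by 0.94 (adjusted p = 9.9e-05, limma). Cul1, the scaffold of the ubiquitin ligase that degrades the Ireb2 protein, rose by 1.70 (adjusted p = 1.3e-05, limma), and Fbxl5, the iron-binding subunit of that ligase, was not analysed here.

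Of 16 mitochondrial iron genes, 4 were higher and 9 lower. Alas2, the haem synthesis enzyme of red cell precursors, fell by 1.65 (adjusted p = 0.00028, limma). Cisd2, an iron-sulphur protein, fell by 1.57 on its brighter probe (adjusted p = 2.3e-05, limma) and was at 0.10 on the other. Among the siderophore genes, Lcn2, lipocalin 2, which binds bacterial siderophores, fell by 2.69 by the scanner labels (adjusted p = 0.00011, limma) and was at 2.75 in the deposited table. Bdh2, an enzyme of mammalian siderophore synthesis, was well above background on only 1 array labelled control and was tested through S3d alone. Its difference of 2.31 therefore has no firm size, and it lay at -0.85 with normexp. For Lcn2, the direction of the scanner labels opposes the study's.

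**Figure D4:**
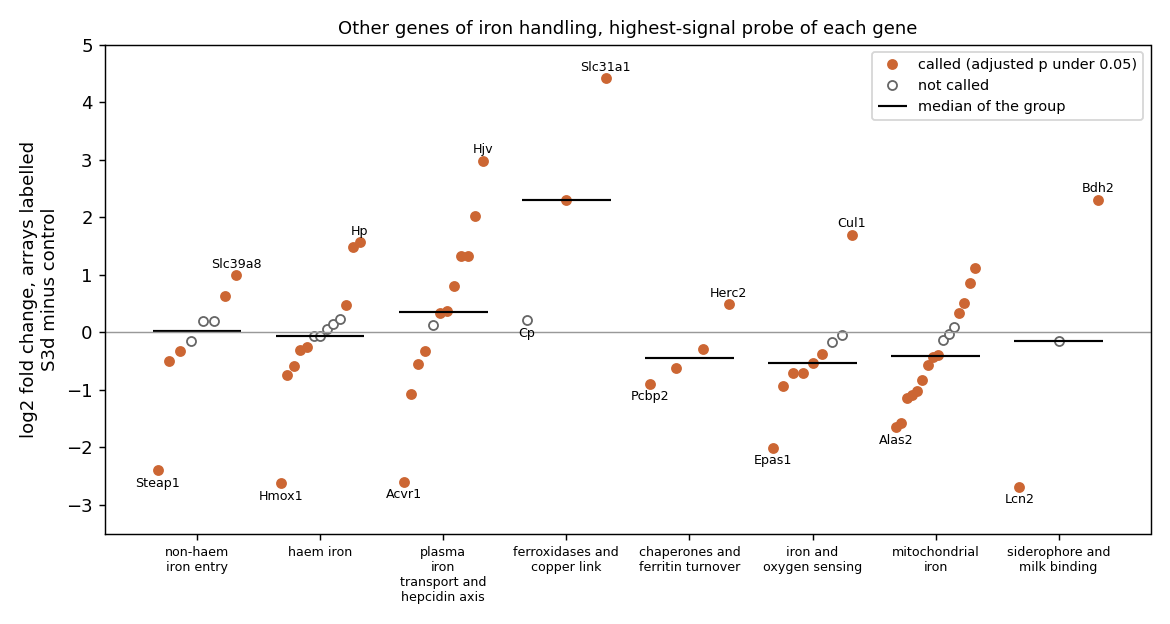
Log2 fold change (y axis, arrays labelled S3d minus control) of the 68 tested genes of iron handling outside the 9 described first, each on its highest-signal probe, by functional group (x axis), with filled points for called genes, open points for the others and a bar at the median of the group. Slc31a1 lies highest at 4.42 and Lcn2 lowest at -2.69.

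Markers of the cell types in the tissue moved as well, by the same scanner labels, with 40 of 47 markers called (85.1%, beside 73.5% of all genes), 9 higher and 31 lower. All 11 enterocyte markers on the array were well above background on all 6 arrays, and 9 of them were called, 8 lower and 1 higher, with a summed level between 3625 and 4052 times the 75th percentile on the arrays labelled control and between 1648 and 1697 on those labelled S3d. Of the markers of red cells, 4 were lower and 1 higher among 5 tested (summed level 121.8 to 146.5 and 41.1 to 64.5), with Hbb at -3.76. Of 8 macrophage markers 5 were lower and 1 higher (134.5 to 142.9 and 68.5 to 73.0), and of 6 markers of proliferating crypt cells, which carry Tfrc, 4 were higher and 2 lower (49.6 to 53.9 and 47.4 to 50.8). All 5 lymphocyte markers tested, both ileal markers and 1 of 2 goblet cell markers were lower, 2 of 5 smooth muscle markers were lower and 1 higher, and of the hepatocyte markers Alb and Apoh failed the background filter while 1 of 3 was higher and 2 lower. These sums weigh the brightest probes most. The direction depended on labels and scaling: of the enterocyte markers 4 were called higher and 2 lower under quantile normalization, and 2 higher and 4 lower in the deposited table by its own labels, in which 24 of all 47 markers were called higher and 13 lower. The part of these shifts in the iron gene results was not tested.

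The profiles over the 6 arrays, each centred on its own mean, were compared with those of the highest-signal probes of 10440 genes. The closest to Slc11a2 were Ccdc71, Dusp2 and Jade2, with root mean square differences of 0.07, 0.12 and 0.12 on the log2 scale. The closest to Slc40a1 were Laptm4a, Rgs10 and Ring1, each with a difference of 0.04. Each comparison of profiles rests on 6 arrays in 2 groups and is a description.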

How the data were processed

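The authors deposited 1-colour scanner output of Agilent Feature Extraction (version 10.7 per the labels) for 6 arrays, and 1 table of log2 values. The deposited intensity used was the processed signal, background-corrected by that program but not normalized between arrays. The 6 columns of the deposited log2 table held nearly the same sorted values (largest gap 0.0025), so it had been quantile-normalized; the program is not given in the sources used here. No sample was reassigned between the labels of the 2 sources. Control and outlier spots were left out, repeated spots averaged, and each array was scaled to its 75th percentile. Tests covered the 31367 of 41012 probes that passed the well-above-background flag throughout either group with limma 3.58.1 in R 4.3.3, Benjamini-Hochberg adjusted, after a check on simulated data. Probes were named through RefSeq accessions and the GRCr8 gene table. For 1774 probes the accession differed between the 2 design versions of the arrays, and the newer was used first. The newer version was that of all arrays labelled control, so design version and group cannot be told apart. Normexp (offset 50) used the median signal, as no mean signal was given.

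The iron genes, the further gene lists and the marker lists were chosen with earlier results of these data known. Named were every probe of the 9 genes, in each further group the 2 largest called rises and falls, and always Hmox1, Slc46a1, Epas1, Ncoa4, Fbxl5, Lcn2, Cp and Hamp; 2 genes that this rule would name are not reported here. For Slc11a2 and Slc40a1, the 3 genes nearest in profile were named too. The number of arrays limits the precision, and the p-values measure the spread between pools, which may share rats. A slide block could not be fitted, because each slide held a single group. The same replicate number did not pair arrays, with deviations from the group means correlating at 0.02, 0.02 and -0.05.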

Additional observations from a re-analysis of the deposited data

How the results depend on the processing

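Of the counts, 8 iron gene probes called became 16 without scaling between arrays and 1 with normexp, and 7 changed by at least 1.5-fold became 16 and 1. Over all tested probes, the 23202 called became 30121 without scaling and 1752 with normexp. The 16452 changed became 28900 and 1752 in turn. The further iron genes called fell from 52 to 8 with normexp. With 1 array left out at a time, 8 to 9 iron gene probes were called, 6 to 7 changed, 49 to 53 further genes were called, 21442 to 22813 of all probes were called and 15984 to 16455 changed. The replicate number as a block gave 8 iron gene probes called and 7 changed, 51 further genes, and 22211 called and 16314 changed over all probes, and it changed no call of a named gene. The cause of these differences was not tested.

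Log2 fold changes of the opposite sign were as follows. Under quantile normalization they were 0.21 (A_44_P214811) and -0.14 (A_44_P313767) for Tfrc, 0.061 (A_44_P292634) and 0.63 (A_44_P351546) for Fth1, and 0.28 (A_44_P149188), 0.083 (A_42_P541034) and 0.63 (A_42_P541032) for Ftl1. With median centring they were -0.17 for Tfrc (A_44_P313767) and -0.0075 for Aco1, with array weights 0.0084 for Ireb2, and with the mean over all probes of the gene 0.80 for Tfrc (A_44_P214811). With normexp they were 0.45 and -0.79 for Tfrc (A_44_P214811 and A_44_P313767), 0.61 for Fth1 (A_44_P351546), 0.37 for Ftl1 (A_42_P541032), -0.33 for Steap3, -0.16 for Hp, -1.90 for Tfr2, -0.65 for Hjv, -0.73 for Cp and -0.85 for Bdh2. Without scaling they were 1.13 for Heph, 1.70 for Tfrc (A_44_P214811), 0.80 and 1.75 for Fth1 (A_44_P292634 and A_44_P351546), 0.80, 0.77, 1.68 and 0.88 for Ftl1 (A_44_P149188, A_42_P541034, A_42_P541032 and A_44_P114869), 1.78 for Ireb2, 1.34 for Slc39a14, 1.11 for Slc46a1, 0.78 for Hamp, 0.95 for Pcbp2, 1.23 for Ncoa4, 0.91 for Egln3, 0.19 for Alas2 and 0.28 for Cisd2. In the deposited table by its own labels they were -0.43 for Slc11a2, -0.80 for Cybrd1, -0.62 and -0.29 for Slc40a1 (A_44_P819401 and A_43_P13162), 0.24 for Heph, -2.55 for Tfrc (A_43_P15662), 0.21 for Ftl1 (A_44_P114869), 0.074 for Ireb2 and -0.59 for Aco1. There they were also 2.88 for Steap1, 0.48 for Slc39a14, -0.49 for Steap3, -1.13 for Slc39a8, 2.47 for Hmox1, 0.46 for Slc46a1, -1.54 for Blvra, -1.34 for Hp, 2.81 for Acvr1, 1.22 for Hamp, -1.17 for Tfr2, -2.58 for Hjv, -2.24 for Atp7a, -4.38 for Slc31a1, -0.047 for Cp, 0.56 for Pcbp2, 0.52 for Ncoa4, -0.54 for Herc2, 2.01 for Epas1, 0.74 for Egln3, -1.82 for Cul1, 1.72 for Alas2, 1.47 for Cisd2, 2.75 for Lcn2 and -1.87 for Bdh2. With 1 array left out, the Tfrc probe A_44_P313767 lay between -0.094 and 0.12. Either other filter on dim probes, outlier spots kept, the intensity trend and the one-way analysis of variance turned no named value.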
